A study of Mus musculus with 18 samples.

Results

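RNA-seq libraries of primary mouse embryonic fibroblasts (MEFs) that lack both *Pole4* and *Trp53* were compared with libraries of fibroblasts that carry both genes intact. The 3 *Pole4*-/- *Trp53*-/- and the 3 *Pole4*+/+ *Trp53*+/+ libraries were taken by the genotype in their labels, which makes 6 of the 18 libraries of the series. The other 12 libraries come from 4 further genotypes: *Pole4*+/+ *Trp53*+/- and *Pole4*+/+ *Trp53*-/-, besides *Pole4*-/- *Trp53*+/- and *Pole4*-/- *Trp53*+/+. All cells were grown at 5% oxygen in medium with 15% serum and, per the study's text, were used at passage 1. Embryos came from C57BL/6 parents heterozygous for both genes, and both nulls are constitutive, so they were already present throughout the embryo and no Cre or promoter limits them to fibroblasts. The labels give no treatment, and the genotype is the only difference between groups that they name. The labels number 3 libraries per genotype without saying that they came from different embryos, so the p-values measure the spread between libraries, part of which may be technical.

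POLE4 is a small histone-fold subunit of DNA polymerase epsilon, the enzyme that copies the leading strand, and it pairs with POLE3. TRP53 is a transcription factor that switches on genes for cell-cycle arrest, apoptosis and DNA repair. Its best-known target, *Cdkn1a*, encodes the p21 inhibitor of cyclin-dependent kinases, and through p21 the RB family and the DREAM complex keep genes of DNA replication and mitosis low. The comparison addresses how the transcriptome looks when the polymerase subunit and the checkpoint factor are both missing.

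The 6 libraries held from 14831534 to 32155281 counts. Levels are given as CPM, counts relative to the library size times edgeR's TMM factor, which sets the libraries to a common centre. All 13 fibroblast markers on a list of such genes were detected in all 6 libraries, and their summed level was 16930, 17350 and 14420 CPM in *Pole4*-/- *Trp53*-/- and 22370, 17340 and 23210 CPM in *Pole4*+/+ *Trp53*+/+ libraries, with overlap between the groups. Ribosomal RNA genes took 24.8%, 30.0% and 24.7% of the counts in *Pole4*-/- *Trp53*-/- libraries and 11.2%, 9.30% and 5.81% in *Pole4*+/+ *Trp53*+/+ libraries. These shares do not overlap, so this difference in the libraries and the genotype cannot be told apart. The second *Pole4*-/- *Trp53*-/- library came from male cells, with *Xist* at 1.62 CPM and the Y-linked genes *Ddx3y*, *Eif2s3y*, *Kdm5d* and *Uty* at 171 CPM in sum, and the other 5 came from female cells. In the summed neural markers, *Pole4*-/- *Trp53*-/- libraries stood above *Pole4*+/+ *Trp53*+/+ libraries, at 130.4 CPM or more against 90.68 CPM or less, and in the summed skeletal muscle markers they stood below, at 59.94 to 79.07 against 117.9 to 155.6 CPM. That sum and most of its members differed in direction, since 8 of the 11 muscle genes tested had a log2 fold change above 0, none of them called. The median over the 11 was 1.42, but 0.52 without the first *Pole4*-/- *Trp53*-/- library and 0.37 in a fit of the 6 libraries alone. Summed macrophage, endothelial and epithelial markers overlapped between the groups, and no erythroid marker reached a level that could be tested.

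*Trp53* transcripts were low in all *Pole4*-/- *Trp53*-/- libraries. *Trp53* (ENSMUSG00000059552, chromosome 11, positions 69580359 to 69591873 of GRCm38) stood at 10.03, 12.09 and 11.93 CPM in *Pole4*-/- *Trp53*-/- and at 89.7, 96.1 and 86.6 CPM in *Pole4*+/+ *Trp53*+/+ libraries. The groups lie far apart, and the log2 fold change was -3.00 ± 0.12 (SE, n = 3 against 3; edgeR's quasi-likelihood test, adjusted p = 5.12e-10). *Pole4* (ENSMUSG00000030042, chromosome 6, positions 82618992 to 82705365) stood at 11.2, 11.99 and 11.2 CPM against 22.9, 20.8 and 16.3 CPM. The groups did not overlap, and *Pole4* fell by 0.81 ± 0.19 on the log2 scale (adjusted p = 0.0142), a call that 4 of the 6 fits without 1 library kept. Counts are summed over each gene, so they do not show which exons the remaining *Trp53* and *Pole4* reads came from.

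Of 15710 genes tested across all 18 libraries, 840 fell and 852 rose in *Pole4*-/- *Trp53*-/- cells at an adjusted p under 0.05 (edgeR, Benjamini-Hochberg). These are 5.35% and 5.42% of the genes, 10.8% together. Before adjustment 4258 genes had a p under 0.05, and chance alone would give 785.5. The median log2 fold change was -0.68 among the called genes that fell and 0.66 among those that rose, and 262 fell and 155 rose by at least 1 on the log2 scale. In 1685 of the 1692 called genes the 2 groups of libraries did not overlap, a separation seen in 38.4% of all genes tested. With 3 libraries in each group, an exact two-sided permutation of 1 gene's levels reaches p = 0.1 at best, so calls rest on the fit across all genes.

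The split between genes that rose and fell depended on the scaling. Library totals in place of TMM factors shifted the median log2 fold change of all genes by -0.33, and 1041 genes were then called lower and 65 higher, so that 5.88% of the calls were rises against 50.35% with TMM. When the ribosomal RNA genes were left out of the totals, the counts were 853 and 1001. Leaving out the third *Pole4*-/- *Trp53*-/- library gave 298 lower and 277 higher genes. Of the *Pole4*+/+ *Trp53*+/+ libraries, omission of the first gave 459 and 452, of the second 599 and 562, and of the third 378 and 302. Without the first *Pole4*+/+ *Trp53*-/- library, 1724 genes were lower and 1613 higher. That library is in neither group compared and enters through the filter, the scaling and the shared estimate of the spread.

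**Figure D1:**
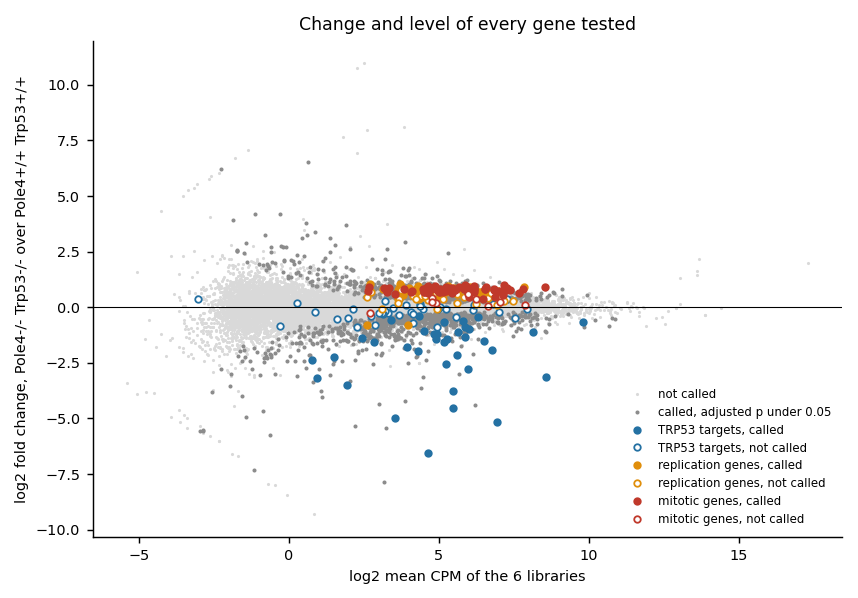
Log2 fold change of *Pole4*-/- *Trp53*-/- over *Pole4*+/+ *Trp53*+/+ (vertical axis) against the log2 mean CPM of the 6 libraries (horizontal axis) for the 15704 genes tested that had counts in them, each point being 1 gene and filled or dark points genes called at an adjusted p under 0.05. TRP53 targets (blue) reach down to -6.53, while called replication genes (orange) and mitotic genes (red) lie above 0, apart from the replication genes *Pole4* and *Pold4*.

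About as many TRP53 target genes fell in *Pole4*-/- *Trp53*-/- cells as did not pass the test. Of 76 known targets on 4 lists (feedback, arrest, apoptosis, and metabolism with repair), 74 could be tested: 36 fell, 1 rose, and 37 did not pass the test. The median log2 fold change of the 74 was -0.66, beside 0.0016 over all genes tested, and the 2 groups did not overlap for 48 of them with the *Pole4*-/- *Trp53*-/- libraries lower, against 18.3% of all genes. The mean log2 CPM over the list was 3.76, 3.66 and 3.56 in *Pole4*-/- *Trp53*-/- and 4.71, 4.72 and 4.82 in *Pole4*+/+ *Trp53*+/+ libraries, so the groups lie about 1 log2 unit apart. Between 30 and 33 targets were called lower in fits that omitted 1 of the 6 libraries, and 39 with library totals as the scaling, where the median was -0.99.

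The genes of TRP53 feedback and stability held some of the most marked decreases. *Mdm2*, the ubiquitin ligase that degrades TRP53, stood at 48.1, 44.5 and 46.3 CPM against 124, 132 and 147 CPM (log2 fold change -1.54 ± 0.11, adjusted p = 4.28e-07). *Ccng1*, which encodes cyclin G1, stood at 84.0, 74.9 and 73.3 CPM against 582, 693 and 771 CPM (-3.14 ± 0.17, adjusted p = 1.21e-08). Neither gene had a *Pole4*-/- *Trp53*-/- library near the wild-type range. *Trp53inp1*, which promotes TRP53 activity and autophagy, stood at 4.45, 4.29 and 2.39 CPM against 80.8, 61.2 and 115 CPM (-4.51 ± 0.63, adjusted p = 0.000934). *Zmat3*, an RNA-binding zinc finger protein, fell by 1.92 ± 0.09 (adjusted p = 3.06e-09). *Rchy1*, another ubiquitin ligase of TRP53, fell by 0.40 ± 0.11 but passed in none of the fits that left out 1 library. It completes the 5 of 10 feedback genes that fell, and none rose. The uncalled member with the lowest p was *Usp7*, a deubiquitinase of MDM2 and TRP53, at a log2 fold change of 0.38 ± 0.14.

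Genes for arrest were led by *Cdkn1a* (ENSMUSG00000023067, chromosome 17, positions 29090976 to 29100727). It stood at 8.80, 6.07 and 5.17 CPM in *Pole4*-/- *Trp53*-/- and at 243, 232 and 251 CPM in *Pole4*+/+ *Trp53*+/+ libraries. The fitted level was 35.9-fold lower, with a log2 fold change of -5.16 ± 0.25 (adjusted p = 4.82e-09) that stayed between -5.42 and -5.02 when any 1 library was left out. Of 20 arrest genes, 10 fell and none rose, with a median of -0.57 that was -0.90 with library totals. *Btg2*, an antiproliferative cofactor of deadenylation, fell by 2.55 ± 0.34, and *Sesn2*, a sestrin that restrains mTORC1, fell by 1.54 ± 0.21. *Dcxr*, a carbonyl reductase of sugar metabolism, was low in all libraries, at 0.680, 0.523 and 0.663 CPM against 5.805, 5.84 and 9.49 CPM, and fell by 3.48 ± 0.43. *Ei24*, an endoplasmic reticulum protein of autophagy, fell by 0.89 ± 0.10. *Ccnd2*, which encodes the G1 cyclin D2 and so acts for the cell cycle rather than against it, fell too, from 1123, 1079 and 1092 CPM to 697.5, 792.8 and 571.3 CPM (-0.68 ± 0.13).

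Apoptosis targets fell in 11 of 19 cases, with a median of -0.87, and none rose. *Eda2r*, of the tumor necrosis factor receptor family, stood at 0.590, 0.471 and 0.530 CPM against 45.9, 42.2 and 61.2 CPM. Its log2 fold change of -6.53 ± 0.31 (adjusted p = 3.53e-09) was the lowest of the 74 targets. *Bbc3*, the BH3-only protein PUMA, stood at 4.22, 3.98 and 2.52 CPM against 9.98, 11.2 and 11.0 CPM (-1.57 ± 0.19). *Bax*, the pore former of the mitochondrial outer membrane, fell by 1.10 ± 0.13, and the death receptor gene *Tnfrsf10b* by 1.41 ± 0.13. *Perp*, a desmosomal membrane protein, fell by 2.22 ± 0.46 and *Ctsd*, which encodes the lysosomal protease cathepsin D, by 1.11 ± 0.21. *Fas*, the death receptor, was at 4.04, 3.77 and 2.45 against 5.74, 5.38 and 7.83 CPM and did not pass (adjusted p = 0.0577), although its groups do not overlap.

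Among targets in metabolism and repair, 10 of 25 fell and 1 rose, with a median of -0.78. *Dglucy*, a mitochondrial D-glutamate cyclase, stood at 0.771, 0.733 and 0.597 CPM against 19.6, 22.9 and 25.5 CPM (-4.99 ± 0.25, adjusted p = 4.94e-09). *Ephx1*, the microsomal epoxide hydrolase, fell by 3.75 ± 0.48, *Tap1*, a subunit of the peptide transporter for antigen presentation, by 3.16 ± 0.51, *Phlda3*, a repressor of AKT, by 2.16 ± 0.16, and the thiamine transporter gene *Slc19a2* by 1.96 ± 0.14. The 2 translesion polymerases on the list moved in opposite directions, and they are named here after their values were seen. *Polk*, which encodes polymerase kappa, stood at 20.4, 18.01 and 17.6 CPM against 41.8, 41.3 and 46.8 CPM (-1.21 ± 0.09, adjusted p = 9.92e-07). *Polh*, which encodes polymerase eta, stood at 31.6, 34.3 and 33.9 CPM against 24.6, 26.2 and 21.6 CPM (0.46 ± 0.13, adjusted p = 0.0387). *Polh* was the 1 target that rose, and it passed in none of the fits without 1 library.

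**Figure D2:**
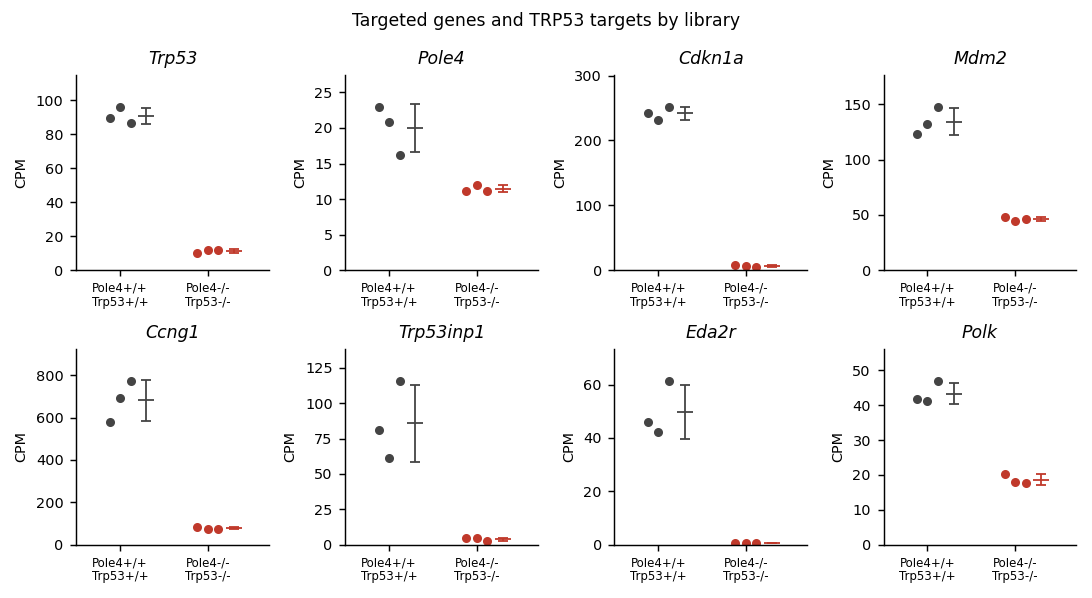
CPM (vertical axes, starting at 0) of the targeted genes *Trp53* and *Pole4* and of 6 TRP53 targets in the 3 *Pole4*+/+ *Trp53*+/+ (dark) and 3 *Pole4*-/- *Trp53*-/- (red) libraries, with points for libraries and bars for the mean and SD. The groups do not overlap in any panel, and the gap is narrowest for *Pole4*, where the lowest wild-type library is at 16.3 CPM and the highest *Pole4*-/- *Trp53*-/- library at 11.99 CPM.

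Several less studied genes were close to absent in *Pole4*-/- *Trp53*-/- cells. The 8 called genes with the lowest log2 fold changes were *Ano3*, *1700007K13Rik*, *Eda2r*, *Klhdc7a*, *Gm28044*, *Svop*, *Inka2* and *Cd80*. *Ano3*, of the anoctamin family, held 4 counts in all *Pole4*-/- *Trp53*-/- libraries together and 1194 in *Pole4*+/+ *Trp53*+/+ libraries, where it stood at 15.1, 13.8 and 25.4 CPM. *Cd80*, the costimulatory ligand of T cells, stood at 0.181, 0.209 and 0.265 CPM against 10.4, 7.03 and 9.37 CPM (-5.35 ± 0.39, adjusted p = 5.10e-07). *Inka2*, an inhibitor of the kinase PAK4, stood at 0.635, 0.366 and 0.199 CPM against 19.5, 16.6 and 19.1 CPM (-5.43 ± 0.40, adjusted p = 6.14e-07). For both, every wild-type library was far above every *Pole4*-/- *Trp53*-/- library. *Klhdc7a* held 1 count against 84, a ratio of 73.1 with a 95% interval from 12.6 to 2765 that covers counting error only. No count was found in *Pole4*-/- *Trp53*-/- libraries for *1700007K13Rik*, *Gm28044* and *Svop*. Taken against a floor of 3 counts per library, they were at least 5.49-fold, 1.68-fold and 1.67-fold lower. Without 1 library, *Gm28044* passed in none of the 6 fits and *Svop* in 1. *Psrc1*, a microtubule-binding protein among the 8 genes with the lowest p, stood at 3.54, 2.04 and 3.91 CPM against 39.0, 34.7 and 44.1 CPM (-3.64 ± 0.22).

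Most calls among genes of DNA replication were rises. Of 73 genes on 6 lists (polymerase epsilon with *Chrac1*, polymerase alpha-primase and delta with the clamp and its loader, MCM2-7, licensing, firing, and nucleotide supply), 41 rose, 2 fell and 30 did not pass. The median log2 fold change was 0.62, and 65 of the 73 did not overlap between the groups with the *Pole4*-/- *Trp53*-/- libraries higher, against 20.1% of all genes. Mean log2 CPM over the list was 5.20, 5.16 and 5.34 in *Pole4*-/- *Trp53*-/- and 4.75, 4.80 and 4.45 in *Pole4*+/+ *Trp53*+/+ libraries. The groups do not overlap, and the third wild-type library was the lowest. The number of calls was less stable than for TRP53 targets: it was 22 without the first or the second *Pole4*-/- *Trp53*-/- library and 8 without the third, and omission of the first or the third *Pole4*+/+ *Trp53*+/+ library left 16 or 7. With library totals as the scaling no replication gene was called higher at an adjusted p under 0.05 and the median was 0.30, and with the ribosomal RNA genes left out of those totals 51 were called and the median was 0.61.

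In polymerase epsilon itself, the 3 other subunits rose while *Pole4* fell. *Pole*, the catalytic subunit, stood at 60.1, 60.3 and 73.0 CPM in *Pole4*-/- *Trp53*-/- and at 39.6, 39.9 and 29.2 CPM in *Pole4*+/+ *Trp53*+/+ libraries (0.83 ± 0.19, adjusted p = 0.0138). *Pole2*, the subunit that binds the replicative helicase, stood at 12.02, 10.3 and 11.3 CPM against 6.44, 7.29 and 5.58 CPM (0.80 ± 0.23, adjusted p = 0.0353). *Pole3*, the histone-fold partner of POLE4, stood at 34.6, 35.2 and 42.1 CPM against 26.9, 28.6 and 22.9 CPM (0.51 ± 0.15, adjusted p = 0.0443). The groups do not overlap for any of the 3, but *Pole2* and *Pole3* passed in none of the 6 fits without 1 library and *Pole* in 4. *Chrac1*, a further histone-fold partner found in chromatin remodelers, stood at 9.48, 7.49 and 8.55 CPM against 9.10, 9.62 and 8.07 CPM, with overlap (-0.07 ± 0.18, adjusted p = 0.854).

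Of the 19 genes for polymerase alpha-primase, polymerase delta, the clamp and its loader, 12 rose and 1 fell, with a median of 0.56 that was 0.24 with library totals. The 12 became 7, 6 and 3 when the first, the second or the third *Pole4*-/- *Trp53*-/- library was dropped, and 6, 11 and 2 for the wild-type libraries in that order. *Pola1*, the catalytic subunit of polymerase alpha, stood at 61.3, 50.7 and 63.9 CPM against 35.3, 31.9 and 29.8 CPM (0.86 ± 0.15, adjusted p = 0.00232) and passed without any 1 library. The clamp loader genes *Rfc1*, *Rfc4* and *Rfc5* rose by 0.45 ± 0.08, 0.79 ± 0.18 and 0.79 ± 0.17. *Pold4*, the small subunit of polymerase delta that is degraded after DNA damage, was the exception, at 3.90, 5.55 and 4.04 CPM against 8.19, 8.01 and 7.24 CPM (-0.80 ± 0.20, adjusted p = 0.0174), a call that 3 of the 6 fits without 1 library kept. *Pcna*, the sliding clamp, did not overlap between the groups but missed the threshold (0.65 ± 0.21, adjusted p = 0.0576).

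All 6 subunits of the MCM2-7 helicase, which unwinds the DNA ahead of the polymerases, had *Pole4*-/- *Trp53*-/- libraries above *Pole4*+/+ *Trp53*+/+ libraries without overlap. *Mcm5* stood at 83.2, 79.5 and 97.7 CPM against 49.7, 53.6 and 35.5 CPM (0.91 ± 0.25, adjusted p = 0.0322), and the third wild-type library was the lowest of the 6. *Mcm3*, *Mcm4*, *Mcm6* and *Mcm7* rose by 0.75 ± 0.22, 0.68 ± 0.17, 0.69 ± 0.19 and 0.69 ± 0.19, with adjusted p values from 0.0182 to 0.0373. *Mcm2* stood at 83.6, 78.6 and 95.3 CPM against 59.1, 68.2 and 46.5 CPM and did not pass (0.57 ± 0.19, adjusted p = 0.0627). No subunit passed in more than 3 of the 6 fits without 1 library.

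Origin licensing genes, which load the helicase in G1, rose in 4 of 11 cases (median 0.63, and 0.31 with library totals). Of the 6 fits without 1 library, 4 called none of them higher, the fit without the second *Pole4*-/- *Trp53*-/- library 1 and that without the second wild-type library 2. These were *Cdt1* (0.98 ± 0.27) and *Cdc6* (0.84 ± 0.26), which load MCM2-7, *Orc1* (0.88 ± 0.27), a subunit of the origin recognition complex, and *Mcm10* (0.78 ± 0.22), a helicase activator, with adjusted p values from 0.0292 to 0.0480. *Cdt1* passed in 2 of those 6 fits, *Cdc6* in 1 and *Orc1* and *Mcm10* in 0. Firing genes, which turn the loaded helicase on, rose in 11 of 16 cases (median 0.67, and 0.36 with library totals), and in 4 to 7 when any 1 library was left out. *Cdc7*, the kinase that phosphorylates MCM2-7, stood at 17.1, 16.8 and 18.7 CPM against 9.10, 8.79 and 7.95 CPM (1.02 ± 0.15, adjusted p = 0.00101). *Recql4*, a helicase that takes part in assembling the replisome, stood at 8.89, 7.91 and 9.41 CPM against 4.93, 4.91 and 2.85 CPM (1.04 ± 0.22, adjusted p = 0.00707). *Timeless*, of the fork protection complex, rose by 0.86 ± 0.13 (adjusted p = 0.000843). The 3 genes kept their calls when any 1 library was left out. *Clspn*, the claspin adaptor of the checkpoint, rose by 0.98 ± 0.25 and kept its call in 3 of those 6 fits.

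Genes for nucleotide supply rose in 6 of 16 cases (median 0.51, and 0.19 with library totals). The count was 1 when the third library of either group was dropped and 3 when the first wild-type library was. *Dck*, deoxycytidine kinase, stood at 35.7, 35.4 and 42.5 CPM against 23.8, 23.0 and 18.8 CPM (0.79 ± 0.14, adjusted p = 0.00356). *Shmt1*, which supplies carbon units to folate, rose by 0.96 ± 0.23, and *Tyms*, thymidylate synthase, by 0.66 ± 0.15, each with its call kept in 4 of the 6 fits without 1 library. *Rrm1*, the large subunit of ribonucleotide reductase, rose by 0.90 ± 0.24 and *Tk1*, thymidine kinase, by 0.83 ± 0.21, with calls kept in 1 and 3 of those fits.

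Calls went in both directions among the transcription factors that drive or restrain these genes. Of 20 genes of the E2F and RB families and the MuvB complex, 8 rose, 1 fell and 11 did not pass (median 0.36, and 0.03 with library totals). The 8 rises became 3 to 5 when any 1 library was left out. The gene that fell was *Rb1*, the retinoblastoma protein that restrains E2F, at 13.4, 12.7 and 12.7 CPM against 21.6, 21.8 and 24.7 CPM (-0.81 ± 0.13, adjusted p = 0.00136). Its call held without any 1 library. The related pocket protein gene *Rbl1* (p107) rose by 0.54 ± 0.11, and *Rbl2* (p130) stood at 21.0, 19.4 and 21.0 against 24.8, 22.9 and 27.9 CPM without passing (adjusted p = 0.172). *Lin9* and *Lin54*, core subunits of MuvB, rose by 1.00 ± 0.19 and 0.80 ± 0.16. *Lin9* stood at 21.7, 24.9 and 31.4 CPM against 13.0, 13.1 and 12.8 CPM.

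Among the E2F genes, the activator *E2f2* rose by 0.97 ± 0.26 from a low level and the repressor *E2f7* by 1.08 ± 0.27, with calls in 1 and 3 of the 6 fits without 1 library, while *E2f1*, *E2f3*, *E2f4*, *E2f5*, *E2f6* and *E2f8* did not pass. *E2f1* stood at 25.3, 23.7 and 25.1 CPM against 20.2, 25.2 and 18.6 CPM, with overlap (0.21 ± 0.12, adjusted p = 0.273). *Mybl2*, the MYB protein that joins MuvB in S phase, had a large change with a wide error (1.22 ± 0.36, adjusted p = 0.0408) and passed in none of the 6 fits without 1 library. *Foxm1*, the forkhead factor of G2/M genes, stood at 108, 106 and 128 CPM against 73.0, 75.6 and 44.4 CPM and missed the threshold (adjusted p = 0.0532). *Tfdp2*, a DNA-binding partner of E2F, was called higher at 0.32 ± 0.08 but lay at -0.0037 with library totals and passed in 2 of those fits. In the list of G1 and G1/S cyclins, kinases and inhibitors, 3 of 16 genes rose (*Cdk2*, *Cdk6* and the inhibitor gene *Cdkn2d*, the first 2 named after their values were seen) and 2 fell, *Cdkn1a* and *Ccnd2*. *Cdk2* rose by 0.44 ± 0.12, *Cdk6* by 0.46 ± 0.13 and *Cdkn2d* by 0.49 ± 0.13, but of the 6 fits without 1 library *Cdk2* passed in 0 and *Cdk6* and *Cdkn2d* in 1 each.

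Mitotic genes rose in larger numbers than replication genes. Of 73 genes for mitotic entry, the kinetochore with its checkpoint, kinesins, and condensin with cohesin and topoisomerase II, 64 rose, none fell and 9 did not pass. The median log2 fold change was 0.79, and 70 of the 73 did not overlap between the groups, with the *Pole4*-/- *Trp53*-/- libraries higher, against 20.1% of all genes. Mean log2 CPM over the list was 5.75, 5.802 and 5.96 in *Pole4*-/- *Trp53*-/- and 5.24, 5.22 and 4.90 in *Pole4*+/+ *Trp53*+/+ libraries, and the third wild-type library was again the lowest. The count was 34 without the third *Pole4*-/- *Trp53*-/- library and, with that one kept, 32 without the third *Pole4*+/+ *Trp53*+/+ library. With library totals it was 2, with a median of 0.46, and 66 with the ribosomal RNA genes left out of those totals. In bulk RNA, more cells in mitosis and more RNA of these genes per cell cannot be told apart.

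For mitotic entry, 17 of 20 genes rose. *Ccna2*, cyclin A2, stood at 172, 189 and 218 CPM against 106, 104 and 76.5 CPM (1.01 ± 0.21, adjusted p = 0.00695), and its call held under library totals and without any 1 library. *Ccnb1* and *Ccnb2*, the mitotic cyclins, rose by 0.90 ± 0.19 and 0.78 ± 0.13, and *Mastl*, the Greatwall kinase, by 0.93 ± 0.15. *Wee1*, which inhibits CDK1, rose as well (0.69 ± 0.15). At the kinetochore and spindle checkpoint, 21 of 24 genes rose. *Ttk*, the MPS1 kinase, stood at 30.0, 31.3 and 36.7 CPM against 18.3, 17.2 and 15.2 CPM (0.95 ± 0.16, adjusted p = 0.00238). *Bub1b*, which encodes BUBR1, rose by 0.79 ± 0.12, *Knl1*, the scaffold of the outer kinetochore, by 0.81 ± 0.14, and *Sgo1*, the protector of centromeric cohesion, by 0.96 ± 0.19.

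Kinesin genes rose in 11 of 12 cases. *Kif4*, which compacts chromosome arms and acts at the spindle midzone, stood at 66.6, 79.9 and 91.3 CPM against 43.0, 41.7 and 32.3 CPM (1.02 ± 0.19, adjusted p = 0.00375). *Kif11*, which pushes spindle poles apart, rose by 0.82 ± 0.15 and *Kif20b*, of cytokinesis, by 0.95 ± 0.16. The exception was *Kifc1*, a minus-end-directed motor, at 31.0, 28.9 and 29.8 against 26.1, 28.2 and 21.4 CPM (adjusted p = 0.318). Condensin, cohesin and topoisomerase genes rose in 15 of 17 cases. *Top2a*, which untangles sister chromatids, stood at 470.4, 472.3 and 529.5 CPM against 299.1, 270.1 and 220.2 CPM (0.90 ± 0.15, adjusted p = 0.00201). *Ncapg* and *Ncapg2*, subunits of condensin I and II, rose by 0.82 ± 0.13 and 0.87 ± 0.15, and *Esco2*, a cohesin acetyltransferase, by 0.81 ± 0.14. When the third *Pole4*-/- *Trp53*-/- library was dropped, 7 entry, 11 kinetochore and 6 kinesin genes were called higher, and when the third wild-type library was, 6, 10 and 6. Dropping the first wild-type library gave 7 kinesin genes.

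**Figure D3:**
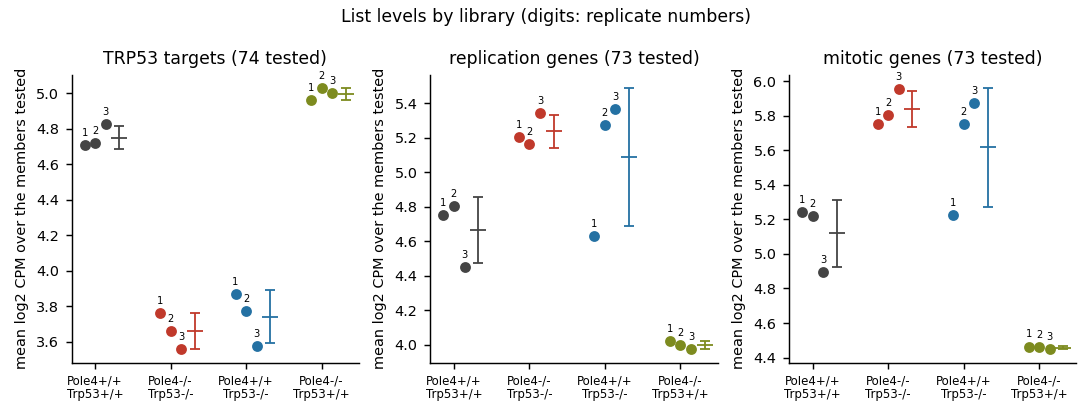
Mean log2 CPM (vertical axes, which do not start at 0) over the tested TRP53 targets, replication genes and mitotic genes in each library of 4 genotypes, numbered by replicate, with bars for the mean and SD of 3 libraries. *Pole4*-/- *Trp53*-/- libraries (red) lie below *Pole4*+/+ *Trp53*+/+ libraries (dark) for TRP53 targets and above them for the other lists, and the first *Pole4*+/+ *Trp53*-/- library (blue) lies apart from the other two in the replication and mitotic panels.

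The promoters of these genes were searched for the letters through which E2F and MuvB complexes are known to bind. The window was the 250 bases before each RefSeq start on GRCm38.p6, read on both strands. The cell-cycle homology region (CHR), searched as TTTGAA and its complement TTCAAA, occurred in 19 of 59 mitotic genes with a promoter entry (32.2%), in 8 of 60 replication genes (13.3%), in 11 of 60 TRP53 targets (18.3%) and in 1365 of 10687 genes tested (12.8%). An E2F-type site, searched as TTTCCCGC or TTTGGCGC and their complements GCGGGAAA and GCGCCAAA, occurred in 9 of 60 replication genes (15%), in 5 of 59 mitotic genes (8.47%), in 2 of 60 TRP53 targets (3.33%) and in 309 of 10687 genes (2.89%). A gene with several starts was counted if any of its windows held the letters. The 150 bases before the start are printed for the 2 called genes of lowest p in each list that held the list's motif there, to show where in the promoter it lies. Capitals mark the motif. *Pola1* lies on the minus strand at chrX:93632156-93632305, *Mcm5* on the plus strand at chr8:75109359-75109508, *Ncapg* on the plus strand at chr5:45669775-45669924 and *Top2a* on the minus strand at chr11:99024190-99024339, and each sequence is given 5′ to 3′ on the gene's strand.
Pola1: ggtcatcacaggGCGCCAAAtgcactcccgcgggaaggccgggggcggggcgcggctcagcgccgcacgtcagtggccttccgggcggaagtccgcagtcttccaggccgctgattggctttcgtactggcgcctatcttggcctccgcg
Mcm5: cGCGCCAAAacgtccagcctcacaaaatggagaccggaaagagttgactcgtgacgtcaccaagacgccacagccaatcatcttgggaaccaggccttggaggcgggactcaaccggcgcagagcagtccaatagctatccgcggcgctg
Ncapg: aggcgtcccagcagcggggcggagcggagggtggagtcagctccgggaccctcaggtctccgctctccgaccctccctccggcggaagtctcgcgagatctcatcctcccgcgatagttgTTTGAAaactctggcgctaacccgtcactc
Top2a: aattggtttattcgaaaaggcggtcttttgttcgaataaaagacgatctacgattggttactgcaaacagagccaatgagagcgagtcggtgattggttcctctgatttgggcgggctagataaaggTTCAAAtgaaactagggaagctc
The capitals begin 138 and 149 bases before the start in *Pola1* and *Mcm5*, and 30 and 23 bases before it in *Ncapg* and *Top2a*. A match is a description of the letters and does not show that a factor bound there in these cells.

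Genes that guard replication forks rose in part. Of 13 genes of the ATR-CHK1 checkpoint, 5 rose (median 0.40, and 0.08 with library totals): *Chek1*, the CHK1 kinase, by 0.78 ± 0.18, *Atm*, the kinase of double-strand break signalling, by 0.40 ± 0.08, *Etaa1*, an activator of ATR, by 0.70 ± 0.17, and *Wee1* and *Clspn* as above. The count of 5 was 2 when the third *Pole4*-/- *Trp53*-/- or the first wild-type library was left out, and 3 when the third wild-type library was. *Chek1* passed in 4 of the 6 fits without 1 library and *Etaa1* in 3. Homologous recombination and Fanconi genes rose in 15 of 22 cases (median 0.63, and 0.31 with library totals), and in 5 to 13 when 1 library was left out. The lower counts were 6 without the third *Pole4*-/- *Trp53*-/- library and, of the *Pole4*+/+ *Trp53*+/+ libraries, 8 without the first and 5 without the third. *Brca1*, which acts in the repair of broken DNA ends, stood at 37.7, 38.5 and 39.1 CPM against 21.3, 22.3 and 18.6 CPM, a narrow spread in both groups (0.89 ± 0.10, adjusted p = 0.000109). *Exo1*, the resecting exonuclease, stood at 30.8, 26.8 and 34.9 CPM against 14.5, 16.9 and 11.4 CPM (1.11 ± 0.24, adjusted p = 0.00898), and passed in 4 of those fits. The helicase genes *Blm* and *Brip1* rose by 0.87 ± 0.17 and 0.75 ± 0.14, and *Fancd2*, the central Fanconi protein, by 0.78 ± 0.15. *Palb2*, the partner of BRCA2, did not pass (0.59 ± 0.20, adjusted p = 0.0681).

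Histone chaperones and enzymes of maintenance methylation, which rebuild chromatin behind the fork, rose in 10 of 11 cases (median 0.79, and 0.47 with library totals). Leaving out 1 library gave 3 to 10 rises, with 3 when the third *Pole4*-/- *Trp53*-/- library was dropped and 4 when the third wild-type library was. *Hells*, a remodeler for DNA methylation, stood at 86.8, 89.6 and 110 CPM against 51.2, 51.1 and 44.0 CPM (0.96 ± 0.19, adjusted p = 0.00502). *Chaf1b*, of the CAF-1 chaperone, rose by 0.91 ± 0.20 and passed in 4 of the 6 fits without 1 library, while *Suv39h1*, a histone H3 methyltransferase, rose by 0.87 ± 0.19, *Hat1*, the acetyltransferase of new histone H4, by 0.79 ± 0.16 and *Ezh2*, the Polycomb methyltransferase, by 0.73 ± 0.15. *Asf1a* was the member that did not pass (0.33 ± 0.14, adjusted p = 0.148).

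Gene lists outside the cell cycle held fewer calls, to be read against the 10.8% of all genes called in either direction. Of 20 collagen genes, 5 fell and none rose (median -0.34, and -0.68 with library totals), and 6 fell without the second *Pole4*+/+ *Trp53*+/+ library but 2 or 3 without any other of the 6 libraries. *Col18a1*, of basement membranes, stood at 21.8, 32.5 and 17.1 CPM against 76.5, 42.6 and 64.4 CPM (-1.36 ± 0.23, adjusted p = 0.00230), and *Col7a1*, of anchoring fibrils, stood at 27.4, 38.9 and 23.6 CPM against 60.7, 62.1 and 104 CPM (-1.33 ± 0.26, adjusted p = 0.00516). *Col14a1*, *Col5a1* and *Col8a1* fell by 1.41 ± 0.39, 0.59 ± 0.15 and 0.53 ± 0.16, the last named after its values were seen, and passed in 1, 3 and 1 of the 6 fits without 1 library. Among 18 matrix proteases and inhibitors, *Mmp2*, the gelatinase, fell by 0.98 ± 0.17 and *Adamts12* by 0.69 ± 0.14, and *Adamts9* rose by 0.97 ± 0.26 but passed in 2 of those fits. Of 25 lysosomal genes, 6 fell and none rose (median -0.39, and -0.72 with library totals), and 5 fell without the second *Pole4*+/+ *Trp53*+/+ library but 1 or 2 without any other of the 6 libraries. Besides *Ctsd*, *Ctsf* (cathepsin F) fell by 1.66 ± 0.46 and *Glb1* (beta-galactosidase) by 0.52 ± 0.14, and they passed in 2 and 1 of the fits without 1 library. Of 20 contractile and myofibroblast genes, *Itga11*, a collagen-binding integrin, fell (-1.29 ± 0.33) and none rose. The call of *Itga11* was lost without the third *Pole4*-/- *Trp53*-/-, the first wild-type or the third wild-type library.

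Interferon-stimulated genes, of which 32 of 40 could be tested, gave 1 rise and 1 fall. *Cxcl10*, a chemokine, stood at 1.54, 1.05 and 1.99 CPM against 0.151, 0.259 and 0.297 CPM (2.72 ± 0.53, adjusted p = 0.00544), and *Irgm1*, an immunity-related GTPase, at 32.9, 25.9 and 22.3 CPM against 42.8, 45.5 and 57.9 CPM (-0.85 ± 0.16, adjusted p = 0.00445). Of 23 cytokine and chemokine genes, *Ccl5* rose by 2.91 ± 0.61 from 0.121, 0.0517 and 0.0593 CPM and *Vegfc*, a lymphatic growth factor, by 1.03 ± 0.24, while *Il11* and *Lif*, cytokines of the interleukin-6 family, fell by 1.11 ± 0.34 and 0.91 ± 0.27. Of the 6 fits without 1 library, *Ccl5* passed in 6, *Vegfc* in 3, *Il11* in 0 and *Lif* in 1. Imprinted growth genes gave 2 rises and 1 fall among 18. *Nnat*, neuronatin, stood at 42.4, 25.2 and 35.1 CPM against 11.5, 16.1 and 8.54 CPM (1.51 ± 0.25, adjusted p = 0.00191), *Slc38a4*, an amino acid transporter, rose by 0.48 ± 0.13 with a call in 2 of the 6 fits, and *Ndn*, necdin, fell by 0.61 ± 0.14. In the IGF axis of 15 genes, *Igf2r*, the receptor that clears IGF2, fell by 0.76 ± 0.22 and passed in 2 of the 6. *Igf2bp2*, an RNA-binding protein, was called higher at 0.28 ± 0.08 but lay at -0.0453 with library totals and passed in 1. Of 20 glycolysis genes, 1 rose, the glucose transporter gene *Slc2a3* (0.91 ± 0.18). Of 20 genes each for the ATF4 and NRF2 responses, *Sesn2* and *Hmox1*, heme oxygenase, fell and *Gclm*, of glutathione synthesis, rose (0.42 ± 0.11). *Sesn2* passed in 6 of the 6 fits without 1 library, *Hmox1* in 3 and *Gclm* in 1. None of 23 cholesterol synthesis genes was called by edgeR, and 5 had an unadjusted p under 0.05, beside 4258 of all 15710 genes tested.

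**Figure D4:**
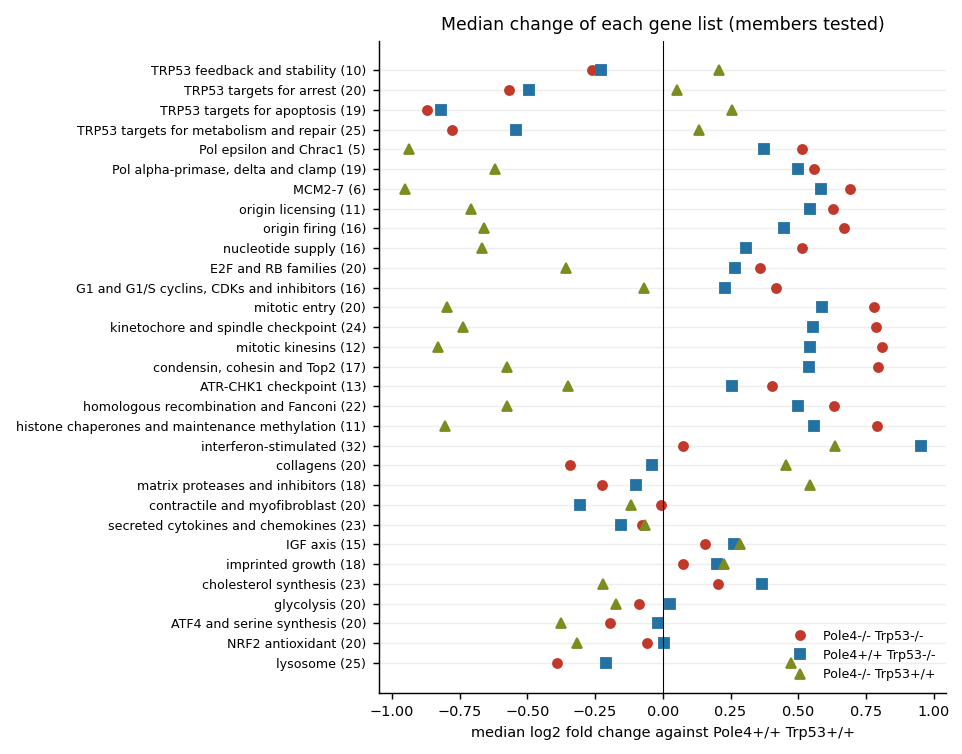
Median log2 fold change against *Pole4*+/+ *Trp53*+/+ (horizontal axis) of each gene list, with the number of members tested in brackets, in *Pole4*-/- *Trp53*-/- (red circles), *Pole4*+/+ *Trp53*-/- (blue squares) and *Pole4*-/- *Trp53*+/+ (green triangles) cells. The 3 comparisons share the *Pole4*+/+ *Trp53*+/+ libraries. Replication and mitotic lists are at 0.51 to 0.81 in *Pole4*-/- *Trp53*-/- cells.

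The genes that rose most were of low level in wild-type cells. The 8 called genes with the highest log2 fold changes were *Gm6685*, *Necab2*, *Pkhd1l1*, *Lsr*, *Tspan8*, *Lrrn4*, *Gm10012* and *Wt1*. *Wt1*, a transcription factor of mesothelium and developing kidney, stood at 3.13, 1.73 and 5.17 CPM in *Pole4*-/- *Trp53*-/- and at 0.363, 0.103 and 0.475 CPM in *Pole4*+/+ *Trp53*+/+ libraries (3.38 ± 0.68, adjusted p = 0.00625). *Lrrn4*, a leucine-rich repeat protein, stood at 2.31, 1.99 and 4.04 CPM against 0.242, 0.103 and 0.237 CPM (3.77 ± 0.73, adjusted p = 0.00516). In both, the third *Pole4*-/- *Trp53*-/- library was the highest and the groups lie apart. *Lsr*, of tricellular junctions, held 49 counts against 3, a ratio of 22.2 with a 95% counting interval from 6.43 to 91.2, and the tetraspanin gene *Tspan8* held 29 against 2, a ratio of 17.65 with an interval from 4.65 to 139. *Pkhd1l1*, a large membrane protein, rose by 4.20 ± 0.96 from 0.0302, 0 and 0.237 CPM. *Necab2*, a calcium-binding protein, had 23 counts against 0 and was at least 2.99-fold higher against a floor of 3 counts per library. *Gm6685* held 176 counts against 2, a ratio of 153.5 with an interval from 27.3 to 814, and it was also at 2.59 to 3.38 CPM in the 3 *Pole4*+/+ *Trp53*-/- libraries. *Gm10012* is annotated as a processed pseudogene, so its reads may be shared with its parent gene. Of the 6 fits without 1 library, *Necab2* and *Pkhd1l1* passed in 4, *Tspan8* in 1 and *Gm10012* in 0.

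Further single genes were looked up after these values had been seen, and they form no list that was tested. *Upk3b* and *Upk1b*, uroplakins found in urothelium and mesothelium, rose by 3.13 ± 0.59 and 2.46 ± 0.48. *Upk3b* stood at 6.08, 2.15 and 5.83 CPM against 0.363, 0.724 and 0.534 CPM. *Gpm6a*, a membrane glycoprotein, rose by 3.13 ± 0.74, *Myo5b*, a vesicle motor of epithelia, by 3.25 ± 0.58, *Aldh1a2*, which makes retinoic acid, by 2.06 ± 0.57, and the epithelial keratin gene *Krt8* by 3.26 ± 0.77, from 0.242, 0.310 and 0.297 to 2.90, 0.890 and 4.44 CPM. Of the 6 fits without 1 library, *Gpm6a* and *Krt8* passed in 3 and *Aldh1a2* in 1. *Msln*, the gene of mesothelin, stood at 1.04, 1.36 and 3.91 CPM against 1.03, 0.775 and 2.08 CPM and overlapped (adjusted p = 0.599). *Muc16* (2.77 ± 0.90, adjusted p = 0.0598), *Bnc1* (1.49 ± 0.48, adjusted p = 0.0604) and the keratin genes *Krt18* and *Krt19* (adjusted p = 0.281 and 0.979) did not pass. The epithelial list had 13 genes, of which 4 could be tested and 1, *Krt8*, rose; its summed level was 37.43, 22.62 and 42.63 CPM against 22.73, 35.11 and 21.66 CPM, and *Krt5*, *Krt15*, *Cldn7*, *Esrp1* and *Grhl2* held at most 6 counts over the 6 libraries. The part of epithelial cells in the values of *Krt8* was not tested, and more cells of a type and more RNA per cell cannot be told apart in bulk libraries. Of the other marker lists, *Des* and *Acta1* fell among 11 muscle genes. Of these 11, 4 others lay higher without overlap, against 20.1% of all genes, and did not pass. *Col10a1* of 9 cartilage genes fell, and *Stmn2* of 10 neural genes rose (1.18 ± 0.30). Without 1 library, *Col10a1* passed in 6 of the 6 fits, *Acta1* in 4, *Des* in 3 and *Stmn2* in 2.

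**Figure D5:**
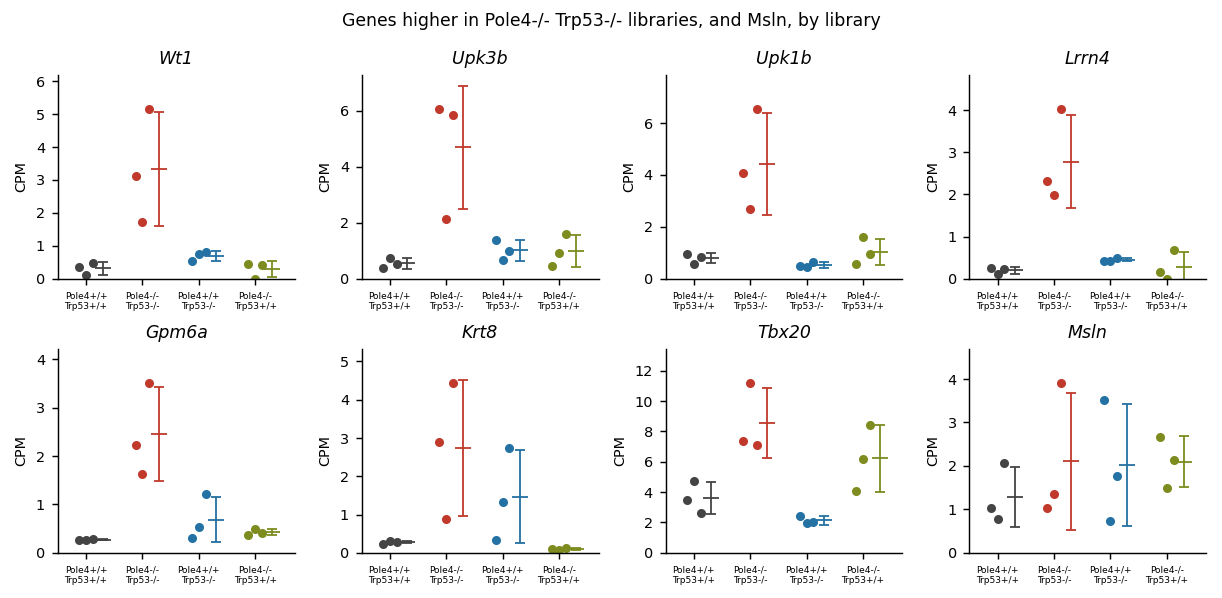
CPM (vertical axes, starting at 0) of *Wt1*, *Upk3b*, *Upk1b*, *Lrrn4*, *Gpm6a*, *Krt8*, *Tbx20* and *Msln* in the 3 libraries of each of 4 genotypes, with points for libraries and bars for the mean and SD. *Pole4*-/- *Trp53*-/- libraries (red) lie above all *Pole4*+/+ *Trp53*+/+ libraries (dark) in each panel except that of *Msln*, where they overlap.

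The median changes of TRP53 targets, replication genes and mitotic genes in *Pole4*-/- *Trp53*-/- cells had the sign of those in *Pole4*+/+ *Trp53*-/- cells. The 3 comparisons use the same *Pole4*+/+ *Trp53*+/+ libraries, so their values are given side by side. The median log2 fold change of the TRP53 targets was -0.66 with both genes lost, -0.52 with *Trp53* lost alone and 0.18 with *Pole4* lost alone. For replication genes it was 0.62, 0.50 and -0.71, and for mitotic genes 0.79, 0.55 and -0.74. The first *Pole4*+/+ *Trp53*-/- library stood apart, at a mean log2 CPM of 4.63 over the replication genes. The others of that genotype were at 5.28 and 5.36. Without the first library, the medians of that genotype were -0.65, 0.65 and 0.72. It also held *Xist* at 857.1 CPM together with Y-linked genes at 7.20 CPM in sum. Every other library with *Xist* at 374.7 CPM or more had Y-linked genes at 0.3023 CPM or less. The source of these reads was not tested. Interferon-stimulated genes had a median of 0.07 in *Pole4*-/- *Trp53*-/- and 0.95 in *Pole4*+/+ *Trp53*-/- cells. The latter was -0.0045 without the first *Pole4*+/+ *Trp53*-/- library. The former ran from -0.0642 to 0.22 when 1 of the 6 libraries compared was left out. Other lists did not share the sign. The median of 4 ribosomal RNA genes was 1.55 with both genes lost, -0.61 with *Trp53* lost alone and 1.499 with *Pole4* lost alone. That of cartilage markers was -0.40, 0.64 and 0.77, but these values depended on single libraries. Omitting replicate 1 of *Pole4*+/+ *Trp53*-/- lowered the 0.64 to 0.12, and it moved the -0.61 of ribosomal RNA to -0.21. With both genes lost, the cartilage median ran from -0.69 to 0.009 as each of the 6 libraries compared was dropped in turn. Fitting those 6 alone gave -0.0972. Ribosomal RNA took 1.82%, 13.1% and 2.32% of the counts in *Pole4*+/+ *Trp53*-/- libraries, against 24.7% or more in *Pole4*-/- *Trp53*-/- libraries. It took 7.11%, 24.1% and 42.5% in *Pole4*-/- *Trp53*+/+ and 0.968%, 26.8% and 4.84% in *Pole4*+/+ *Trp53*+/- libraries. The share thus also varied widely between libraries of the same genotype.

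Tested directly against *Pole4*+/+ *Trp53*-/-, 1 of the 15710 genes (0.00637%) differed by edgeR's test, while 1636 had an unadjusted p under 0.05. DESeq2 called 29 and limma's voom 1. The gene was *Tbx20*, a T-box factor of heart development, at 7.39, 11.2 and 7.09 CPM in *Pole4*-/- *Trp53*-/- and 2.46, 1.94 and 2.02 CPM in *Pole4*+/+ *Trp53*-/- libraries (1.99 ± 0.28, adjusted p = 0.0469). It stood at 3.51, 4.71 and 2.61 CPM in *Pole4*+/+ *Trp53*+/+ libraries (1.25 ± 0.27 higher in *Pole4*-/- *Trp53*-/-, adjusted p = 0.00940) and at 4.04, 6.18 and 8.43 CPM in *Pole4*-/- *Trp53*+/+ libraries, where its range overlaps that of *Pole4*-/- *Trp53*-/-. Without the first *Pole4*+/+ *Trp53*-/- library the adjusted p of *Tbx20* was 0.0702. *Pole4* itself, at 14.2, 25.4 and 26.4 CPM in *Pole4*+/+ *Trp53*-/- libraries, differed by -0.93 ± 0.19 with an adjusted p of 0.300, and by -1.17 with an adjusted p of 0.00309 without that library. *Wt1* was 2.28 ± 0.64 and *Upk1b* 3.09 ± 0.51 higher than in *Pole4*+/+ *Trp53*-/- cells, with adjusted p of 0.445 and 0.131, so a difference from *Trp53* loss alone was not shown for them. A p that misses the threshold does not show that the genotypes were alike.

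Against *Pole4*-/- *Trp53*+/+ cells, 6699 genes (42.6%) were called. Among the genotypes not heterozygous for *Trp53*, replication and mitotic genes were lowest in those libraries, at a mean log2 CPM of 3.97 to 4.02 and 4.45 to 4.46. The change in *Pole4*-/- *Trp53*-/- cells departed from the sum of both single changes in 52 genes (0.331%; edgeR's interaction contrast), 24 lower and 28 higher than the sum, and the count ran from 0 to 3242 over the alternatives.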

How the data were processed

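RNA was sequenced from primary MEFs of 6 genotypes with 3 libraries each, 18 in all. The authors made cDNA with a NuGen Ovation kit, sequenced it as paired ends, trimmed the reads, aligned them with STAR 2.5.2 to GRCm38 and deposited the expected counts per gene from RSEM 1.3.0 (versions from the submitters' processing notes, which also name DESeq2 1.10.1). RSEM divides reads that match several genes, and 6.14% of the values are not whole; they were rounded. Ribosomal RNA stayed in the counts.

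Of 51912 genes, 51633 matched a symbol and 15710 passed edgeR's filterByExpr. edgeR 4.0.16 in R 4.3.3 was fitted to all 18 libraries (TMM, 1 mean per genotype, robust quasi-likelihood F-test), with Benjamini-Hochberg adjustment over all genes tested and a threshold of 0.05. The SE is the size of the log2 fold change divided by the square root of F. Levels of lists are means of log2 CPM (prior count 2). Alternatives used DESeq2 1.42.0, limma 3.58.1, other scalings, filters and sets of libraries. Promoter sequences are RefSeq's.

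The groups and gene lists were chosen with earlier results of these data known. Named genes are the fixed ones (*Trp53*, *Pole4*, *Cdkn1a*, *Mdm2*, *Ccng1*, *Trp53inp1* and the sex genes), all members of the polymerase epsilon, MCM2-7 and E2F and RB lists, in other lists called members with the 3 lowest p and the 3 largest changes and the uncalled member of lowest p, and over all genes the 8 lowest and 8 highest called without overlap, the 8 lowest p, and up to 5 genes in each further comparison. Intervals and floors cover counting error only, at 95% and 3 counts. Some results that the naming rule would include are not reported here.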

Additional observations from a re-analysis of the deposited data

Results flagged for a closer look

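The change on losing *Trp53* was larger in *Pole4*-/- than in *Pole4*+/+ cells for 12 of the named genes by edgeR's interaction contrast, with adjusted p values from 0.0313 to 0.0486. The extra log2 rise in *Pole4*-/- cells was 1.15 for *Pola1*, 1.06 for *Bub1b*, 1.08 for *Knl1*, 1.37 for *Sgo1*, 1.05 for *Kif11*, 1.07 for *Ncapg*, 1.07 for *Ncapg2*, 1.10 for *Top2a*, 0.88 for *Brca1*, 0.99 for *Brip1*, 1.05 for *Fam111a*, a protease at replication forks, and 1.13 for *Parpbp*, a PARP1-binding protein. *Top2a* shows the pattern: it rose by 1.68 between *Pole4*-/- *Trp53*+/+ and *Pole4*-/- *Trp53*-/- cells and by 0.58 between *Pole4*+/+ *Trp53*+/+ and *Pole4*+/+ *Trp53*-/- cells. The contrast was negative for *Cst3*, the gene of cystatin C, at -1.12, for *Csgalnact1*, of chondroitin synthesis, at -1.93, and for *Efs*, a docking protein, at -2.11. The number of genes past the threshold in this contrast was unstable. It was 0 when the first or the third *Pole4*-/- *Trp53*-/- library, the first or the second *Pole4*+/+ *Trp53*+/+ library or the second or the third *Pole4*-/- *Trp53*+/+ library was left out, 170, 1973 and 3242 for the first, the second and the third *Pole4*+/+ *Trp53*-/- library, 408 for the third *Pole4*+/+ *Trp53*+/+ library, 11 for the first *Pole4*-/- *Trp53*+/+ library and 1 for the second *Pole4*-/- *Trp53*-/- library. The named genes are a selection from the 52 called, and this selection was made with their change in *Pole4*-/- *Trp53*-/- cells known.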

How the results depend on the processing

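Of 208 named genes tested, 150 were called, 148 of these kept their direction in every alternative, 52 were called in every alternative with all libraries and 83 without any 1 of the 6 libraries. *Tfdp2* and *Igf2bp2* turned to -0.0037 and -0.0453 with library totals. Against 840 lower and 852 higher genes, limma's voom with quality weights gave 1673 and 2052, an adjusted p under 0.01 gave 281 and 280, a log2 change of at least 1 gave 262 and 155, and a fit without heterozygous genotypes gave 446 and 458. Higher genes were also 65 with library totals, 536 without the low-count filter and 1333 in a fit of the 6 libraries alone. Leaving out 1 library gave 298 to 1724 lower and 277 to 1613 higher genes. TRP53 targets called lower stayed between 28 and 44. Replication genes called higher (41) were 0 with library totals, 27 without the filter, 15 without heterozygous genotypes, 7 at an adjusted p under 0.01 and 2 at a log2 change of at least 1, and 7 to 60 without 1 library. Mitotic genes called higher (64) were 2 with library totals, 36 at an adjusted p under 0.01, 2 at a log2 change of at least 1, and 32 to 67 without 1 library. The cause was not tested, other than that the 2 stricter thresholds call fewer genes by construction.

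Alternatives for the further comparisons, library totals without ribosomal RNA genes and the omission of libraries of the single-null genotypes were added after the data had been seen. Against *Pole4*+/+ *Trp53*-/- the 1 call became 29 with DESeq2, 2 without the filter, 0 to 2 without 1 library, and 0 with library totals, library totals without ribosomal RNA genes, upper-quartile scaling, ribosomal RNA genes left out, a mean of at least 50 counts, no heterozygous genotypes or a replicate block. The 52 genes of the interaction became 1775 with DESeq2, 1234 with voom, 308 with upper-quartile scaling, 326 without ribosomal RNA genes, 607 with library totals without them, 339 without the filter, 490 at a mean of at least 50 counts, 548 with a replicate block, 0 with library totals, without heterozygous genotypes or with *Xist* as a covariate, and 0 to 3242 without 1 library. Replicate numbers were not treated as pairs: same-numbered libraries of the 2 groups correlated in their deviations at -0.119, -0.0652 and 0.253, the first and the second lay closer to another number than to their own, and the number as a block gave 960 lower and 936 higher genes. The median SE of a log2 fold change was 0.19, and genes under about 1 CPM rest on few counts.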
